A study of Homo sapiens with 6 samples.

Results

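The 39 protein coding HOX genes of the HOXA, HOXB, HOXC and HOXD clusters were examined among 20163 protein coding genes of the GENCODE annotation on the human genome build GRCh37 (hg19). Members were chosen by their gene symbol alone, which gave 11 genes in HOXA on chromosome 7, 10 in HOXB on chromosome 17, 9 in HOXC on chromosome 12 and 9 in HOXD on chromosome 2. The data came from native ChIP-Seq (nChIP-Seq), in which micrococcal nuclease frees nucleosomes that are then immunoprecipitated with no crosslinking step. All cells were U2OS, a human osteosarcoma line, grown to 2 days after confluence. The ProMMP2-3xHA cells were a stable line made with a lentiviral vector that constitutively expresses pro-MMP-2, the full-length precursor of a protease, with HA tags at its C-terminus, in cells that still make MMP-2 of their own, and the wild type (WT) cells carried no tag. The HA antibody was used in 3 replicates of the ProMMP2-3xHA cells, and an antibody against trimethylated lysine 4 of histone H3 (H3K4me3) in 1 library of each line. The study describes the HA replicates as biologically independent, and it also ran the HA immunoprecipitation in the WT cells as a control, for which no list of regions was analysed here.

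HOX genes encode homeodomain transcription factors that set positional identity along the body axis. Their order along a cluster follows their order of use in the embryo, from the anterior genes with low paralog numbers to the posterior genes with high ones, and genes with the same number in different clusters are paralogs. The Trithorax group, which includes writers of H3K4me3, keeps HOX genes active, and the Polycomb group keeps them silent. Differentiated cells and cell lines keep the part of each cluster that reflects their origin in an active state. MMP-2 is a matrix metalloproteinase that also cuts the N-terminal tail of histone H3 in the nucleus, the tail that carries H3K4me3.

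The files gave called regions and not reads. Replicates 1, 2 and 3 held 6401, 9193 and 8933 HA peaks, and the number of fragments recovered from the fold enrichment and the p-value of the summits had a median of 50, 44 and 42. The deposited merged HA list, made from all replicates together, held 7211 regions on the chromosomes compared, with no 2 regions closer than 4032 bp to each other. Fold enrichment below is the authors' linear ratio of HA over a control at the summit of a peak, the control being taken to be an HA immunoprecipitation. A gene was counted as having a mark when a region lay within 1 kb of its transcription start site (TSS), taken as the 5′ end of the annotated gene. For 12 HOX genes (HOXA6, HOXA7, HOXA9, HOXA10, HOXB3, HOXB7, HOXC4, HOXC6, HOXC9, HOXD3, HOXD10 and HOXD11) this 5′ end lay over 1 kb from the TSS of the canonical transcript, so both are given where they differ.

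The sequence at the summit is shown first for 5 merged HA peaks near a HOX gene that had a peak in every replicate, since these are the HOX sites with the most repeated HA signal. Each window is 151 bases of GRCh37 around the summit of the replicate with the highest fold enrichment, printed 5′ to 3′ on the strand of the gene, with every CG dinucleotide in capitals.
HOXA4, chr7:27170660-27170810, minus strand: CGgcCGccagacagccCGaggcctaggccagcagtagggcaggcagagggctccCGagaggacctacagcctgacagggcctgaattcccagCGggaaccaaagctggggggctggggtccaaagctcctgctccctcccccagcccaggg
HOXA7, chr7:27195644-27195794, minus strand: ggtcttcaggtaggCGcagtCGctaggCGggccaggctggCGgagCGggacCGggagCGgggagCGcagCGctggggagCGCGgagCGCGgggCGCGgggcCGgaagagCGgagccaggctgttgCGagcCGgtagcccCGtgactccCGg
HOXA10, chr7:27213056-27213206, minus strand: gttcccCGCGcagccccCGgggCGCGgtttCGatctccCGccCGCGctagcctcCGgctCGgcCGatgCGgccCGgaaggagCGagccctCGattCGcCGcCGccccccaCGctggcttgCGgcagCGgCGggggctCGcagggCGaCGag
HOXB9, chr17:46702752-46702902, minus strand: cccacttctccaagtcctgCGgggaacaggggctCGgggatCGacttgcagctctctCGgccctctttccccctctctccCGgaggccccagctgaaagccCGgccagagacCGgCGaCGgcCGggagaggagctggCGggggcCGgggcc
HOXC4, chr12:54411991-54412141, plus strand: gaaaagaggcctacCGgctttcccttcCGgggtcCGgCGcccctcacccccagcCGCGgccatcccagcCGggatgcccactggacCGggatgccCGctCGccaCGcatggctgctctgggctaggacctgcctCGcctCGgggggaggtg
The HOXA10 window had 26 CG dinucleotides and lay entirely in coding sequence of exon 1. The HOXA7 window had 21 and spanned the end of coding exon 1 (9 coding bases) and intron 1. The HOXB9 window had 12 and lay in intron 1. The HOXA4 window had 5 and lay upstream of the canonical TSS, its summit at 359 bp. The HOXC4 window had 13 and lay downstream of the 5′ end of the annotated HOXC4 gene, but 35553 bp upstream of the canonical HOXC4 TSS. The GC content of these windows ran from 69.5% for HOXA4 to 78.8% for HOXA10. The observed over expected ratio of CG ran from 0.274 for HOXA4 to 1.11 for HOXA10, so the sites differed widely in CG density although all had high GC content. In windows of 500 bp around the centres of the 14 merged HA peaks in the clusters, the median GC content was 64.3% (61.8% to 73.6%) and the median CG ratio 0.796, against 65.2% and 0.793 over all 7211 merged peaks. The core homeodomain motif TAAT, searched on both strands, was present in 9 of the 14 windows (64.3%) against 47.3% of all merged peak windows. The joint motif of HOX proteins with PBX cofactors, TGATTNAT, was present in none of the 14 against 2.15% of all, and TATAAA in 2 (14.3%) against 7.6%. These matches describe letters in the window and not binding sites.

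HA peaks were found at part of the HOX TSSs, in a number below or near that of protein coding genes in general. A merged HA peak lay within 1 kb of 8 of 39 HOX TSSs (20.5%), against a background of 28.2% of all protein coding TSSs. Replicate 1 had an HA peak at 4 HOX TSSs (10.3%, background 20.3%). Replicate 2 had one at 12 (30.8%, background 28.0%). Replicate 3 had one at 13 (33.3%, background 28.6%). The mean was 9.67 ± 4.93 HOX TSSs (SD, n = 3), and replicate 1 stood below the other replicates by a factor of 3 or more, although it also had fewer peaks in all. Replicates 2 and 3 were thus slightly above the background and replicate 1 and the merged list below it, so no departure from the background was shared by the replicates. With the canonical TSS, 9 HOX genes had a merged HA peak (23.1%) against a background of 30.4%.

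H3K4me3 of the ProMMP2-3xHA cells lay at 21 HOX TSSs (53.8%, background 57.0%) and H3K4me3 of the WT cells at 23 (59%, background 60.9%). With the canonical TSS, H3K4me3 of the ProMMP2-3xHA cells was again at 21 HOX genes (53.8%), against a background of 61.2%, and that of the WT cells at 22 (56.4%, background 65.0%). With the annotated 5′ end, the HOX share was near that of all genes in both lines. With the canonical TSS it was somewhat lower, and neither difference was tested. Among the 21 HOX TSSs with H3K4me3 of the ProMMP2-3xHA cells, 8 had a merged HA peak (38.1%) against a background of 48.8%. In the same 21 genes, replicate 1 had HA at 4 (19%, background 35.1%), replicate 2 at 12 (57.1%, background 47.9%) and replicate 3 at 12 (57.1%, background 49.6%). The replicates again fell on both sides of their backgrounds.

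The members fell into a few states. The 8 genes with a merged HA peak, HOXA4, HOXA6, HOXA11, HOXB9, HOXC4, HOXC9, HOXD8 and HOXD9, all had H3K4me3 in both lines. The 7 genes HOXA5, HOXA9, HOXB3, HOXB6, HOXC11, HOXD1 and HOXD3 had H3K4me3 in both lines and HA in 1 or more replicates only. The genes HOXA13, HOXB13, HOXC8, HOXC10 and HOXC13 had H3K4me3 in both lines and no HA peak in any list. This last set held the posterior ends of HOXA, HOXB and HOXC. HOXB2 and HOXD11 had H3K4me3 in the WT list only and no HA. At their canonical TSSs, HOXA6, HOXB3 and HOXD3 had neither mark in any list. HOXC4 had H3K4me3 in both lines but no HA peak at its canonical TSS, and HOXD11 had no H3K4me3 there. HOXA10 had no H3K4me3 at its annotated 5′ end, where replicate 3 alone had a peak of 4.20 fold. At their canonical TSSs, HOXA9 and HOXA10 each had a merged HA peak and H3K4me3 in both lines. The remaining 15 genes had neither mark at the annotated 5′ end, although HOXA7 among them had both marks, and HOXB7 had H3K4me3, at the canonical TSS. Counting both start sites, 11 of the 39 HOX genes had a merged HA peak (background 31.3% of all protein coding genes), 17 an HA peak in some list (background 39.4%) and 24 H3K4me3 of the ProMMP2-3xHA cells (background 62.1%). The 13 genes with neither mark at either start site were HOXA2, HOXA3, HOXB1, HOXB4, HOXB5, HOXB8, HOXC5, HOXC6, HOXC12, HOXD4, HOXD10, HOXD12 and HOXD13. These genes can have further transcripts that start elsewhere. With the TSSs of all protein coding transcripts, 11 HOX genes had a merged HA peak (28.2%, background 31.8%). HOXC6 was among those 11, so it was not without HA at every start site. Over all protein coding genes, a merged HA peak lay at 49% of the 11446 TSSs with H3K4me3 in both lines, at 2.54% of the 828 with H3K4me3 in WT cells only and at 0.804% of the 7840 with none. At the annotated 5′ ends used for these classes, the HOX genes had no merged HA peak outside the first class.

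**Figure D1:**
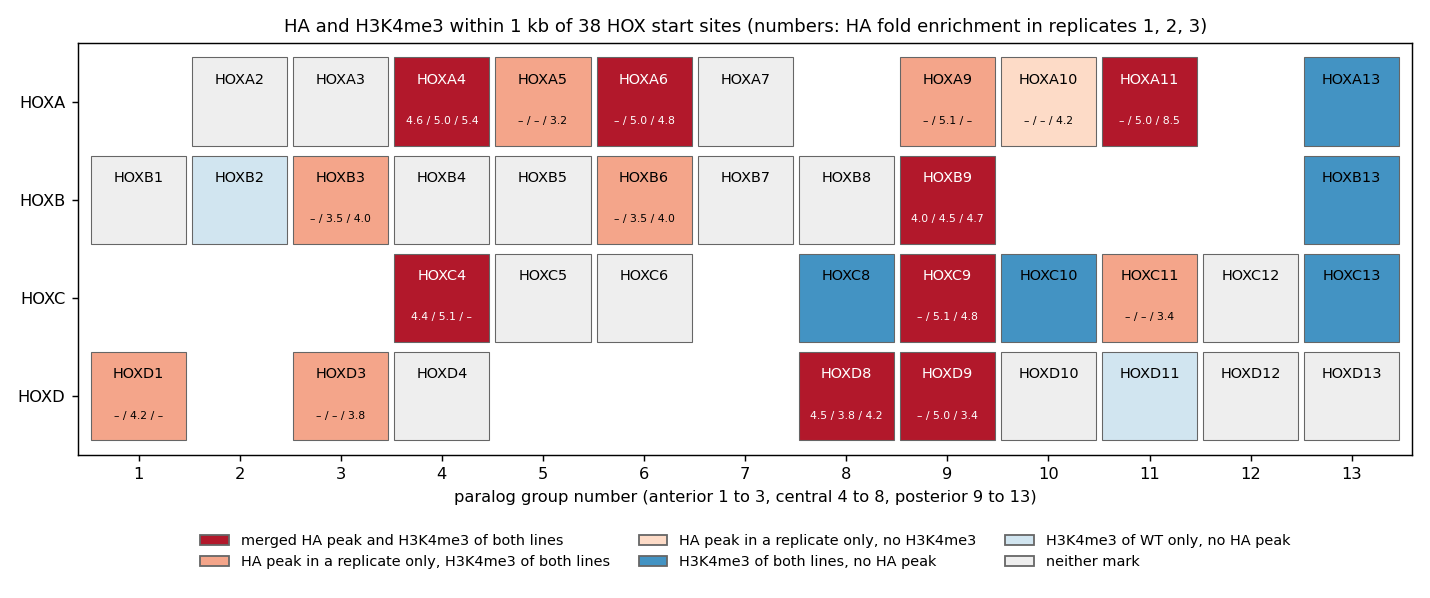
Grid of 38 of the 39 HOX genes by cluster (rows) and paralog group (columns), coloured by the marks within 1 kb of the 5′ end of the gene, with the HA fold enrichment of replicates 1, 2 and 3 and a dash where a replicate had no peak. The 8 genes with a merged HA peak lie in paralog groups 4 to 11, with 3 of them in group 9.

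By class, none of the 8 anterior genes (groups 1 to 3) had a merged HA peak, against 4 of 15 central genes (groups 4 to 8) and 4 of 16 posterior genes (groups 9 to 13). The central and posterior shares, 26.7% and 25%, were near the background of 28.2% of all protein coding TSSs. The classes hold few genes, and their differences from each other and from the background were not tested. Replicate 1 had HA at 0 anterior, 3 central and 1 posterior genes (background 20.3%), replicate 2 at 2, 5 and 5 (background 28.0%), and replicate 3 at 2, 5 and 6 (background 28.6%). At the annotated 5′ ends, anterior genes were therefore not free of HA in the lists of replicates 2 and 3, where HOXB3, HOXD1 and HOXD3 supplied the peaks. The canonical TSSs of HOXB3 and HOXD3 lay 14671 and 20695 bp away and had no HA peak in any list. Of these genes, only HOXD1 in replicate 2 had HA at its canonical TSS. H3K4me3 of the ProMMP2-3xHA cells lay at 4 anterior, 7 central and 10 posterior genes (background 57.0%), and that of the WT cells at 5, 7 and 11 (background 60.9%). By paralog group, group 9 had the highest counts, with H3K4me3 at 4 of 4 genes in both lines and a merged HA peak at 3 of 4 (HOXB9, HOXC9 and HOXD9), and the other member, HOXA9, had a merged HA peak at its canonical TSS. Groups 1, 2, 3, 5, 7, 10, 12 and 13 had no merged HA peak at the annotated 5′ ends. No group holds more than 4 genes, and the groups were not tested against the background.

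HOXA held 7 of the 14 merged HA peaks in the clusters, most of them at its central and posterior genes. At HOXA4, the peak at chr7:27170170-27170857 had 4.57, 4.95 and 5.41 fold in replicates 1, 2 and 3, from 56, 58 and 59 fragments at the summit. Its centre lay 137 bp upstream of the canonical HOXA4 TSS, in intron 2 of a longer HOXA3 transcript, and it was near the 5′ end of the antisense RNA gene HOXA-AS3. The replicates gave this peak nearly the same height.

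At HOXA7, the peak at chr7:27195636-27196226 in coding exon 1 had 3.79, 4.97 and 5.67 fold, with its centre 363 bp downstream of the canonical TSS. At HOXA10, the peak at chr7:27212715-27213657 spanned 943 bp with its centre 753 bp downstream of the canonical TSS. It had 3.62 fold in replicate 1, 5.06 in replicate 2 and 5.48 in replicate 3. Its replicate 2 interval also lay within 1 kb of the 5′ end of the annotated HOXA9 gene, which gave HOXA9 its value of 5.06 in that replicate. Replicate 1 was the lowest at both sites.

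HOXA11, a posterior gene of limb and reproductive tract development, had the highest HOX value of any replicate. Its peak at chr7:27223711-27224789 had 4.97 fold in replicate 2 and 8.54 in replicate 3, and no peak in replicate 1. The peak covered coding exon 1 and the 5′ end of the antisense gene HOXA11-AS, whose signals cannot be told apart here. The 544 bp peak at HOXA6, chr7:27189985-27190528, had 5.01 and 4.84 fold in replicates 2 and 3 and lay in intron 1 of HOXA3. The peak in coding exon 1 of HOXA9, chr7:27204204-27204811, overlapped a peak of replicate 3 only, at 3.99 fold.

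A further merged peak of 190 bp at chr7:27155219-27155408 lay in intron 4 of the canonical HOXA3 transcript, over 1 kb from every HOX and noncoding start site. It had 4.07 and 5.00 fold in replicates 2 and 3 and none in replicate 1. It lay in the widest H3K4me3 region of the clusters in the ProMMP2-3xHA cells, which spanned 5509 bp, where the WT list had regions of 2673 and 167 bp. Of the other HOXA genes, HOXA5 had a peak in replicate 3 only, at 3.19 fold, and HOXA2, HOXA3 and HOXA13 had none at their TSSs.

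HOXC held 3 merged HA peaks, 2 of them in every replicate. The widest of the clusters, 1208 bp at chr12:54411306-54412513, had 5.89, 5.13 and 5.73 fold in replicates 1, 2 and 3, and its value in replicate 1 was the highest HOX value of that replicate. It was counted for HOXC4 through the annotated 5′ end of the gene, 36904 bp from the canonical TSS, and only replicates 1 and 2 had a peak of it within 1 kb of that 5′ end, at 4.40 and 5.13 fold. Replicate 3 had its peak farther into the region. At HOXC9, the peak in coding exon 1, chr12:54394022-54394477, had 4.73, 7.04 and 3.58 fold, the widest spread of the 6 peaks found in every replicate. Its centre lay 304 bp downstream of the canonical TSS.

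A second peak of HOXC9, chr12:54389458-54389618, lay 4407 bp upstream of the canonical TSS near the 5′ end of HOXC-AS2, with 5.14 and 4.78 fold in replicates 2 and 3. Near HOXC11, peaks lay outside the merged list, at 5.85 fold in replicate 2, within 1 kb of the 5′ end of the lncRNA gene HOTAIR, and at 3.37 fold in replicate 3 within 1 kb of the HOXC11 TSS. These peaks did not overlap each other. HOXC8, HOXC10 and HOXC13 had H3K4me3 regions of 1548, 1400 and 3042 bp in the ProMMP2-3xHA cells without HA in any list.

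HOXB held 2 merged HA peaks in the longest span. HOXB9 had the peak at chr17:46702617-46703425, with 3.95, 4.55 and 4.72 fold in replicates 1, 2 and 3, in intron 1 with its centre 699 bp downstream of the TSS. The other, chr17:46724017-46724183, lay between HOXB9 and HOXB13 at the 5′ ends of the lncRNA genes LINC02086 and LINC03057, with 3.41 and 4.03 fold in replicates 2 and 3. Replicate 1 had a separate peak of 3.88 fold in the same H3K4me3 region. HOXB3 and HOXB6, whose annotated 5′ ends lie next to each other, shared peaks of 3.51 fold in replicate 2 and 4.0 fold in replicate 3 that were not in the merged list. All HOXB values were below 5 fold.

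HOXD held 2 merged HA peaks, neither with a peak in every replicate. At HOXD9, chr2:176987059-176987657, replicates 2 and 3 had 4.96 and 3.44 fold. At HOXD8, chr2:176994160-176994328, only replicate 1 overlapped the merged peak, at 4.53 fold, with its summit 239 bp upstream of the canonical TSS. Replicates 2 and 3 had 3.82 and 4.15 fold at summits 592 and 582 bp downstream of that TSS in the 5′ UTR. The replicates thus placed HA at the same gene but on different sides of its start. HOXD1 had 4.17 fold in replicate 2 only and HOXD3 had 3.78 fold in replicate 3 only.

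**Figure D2:**
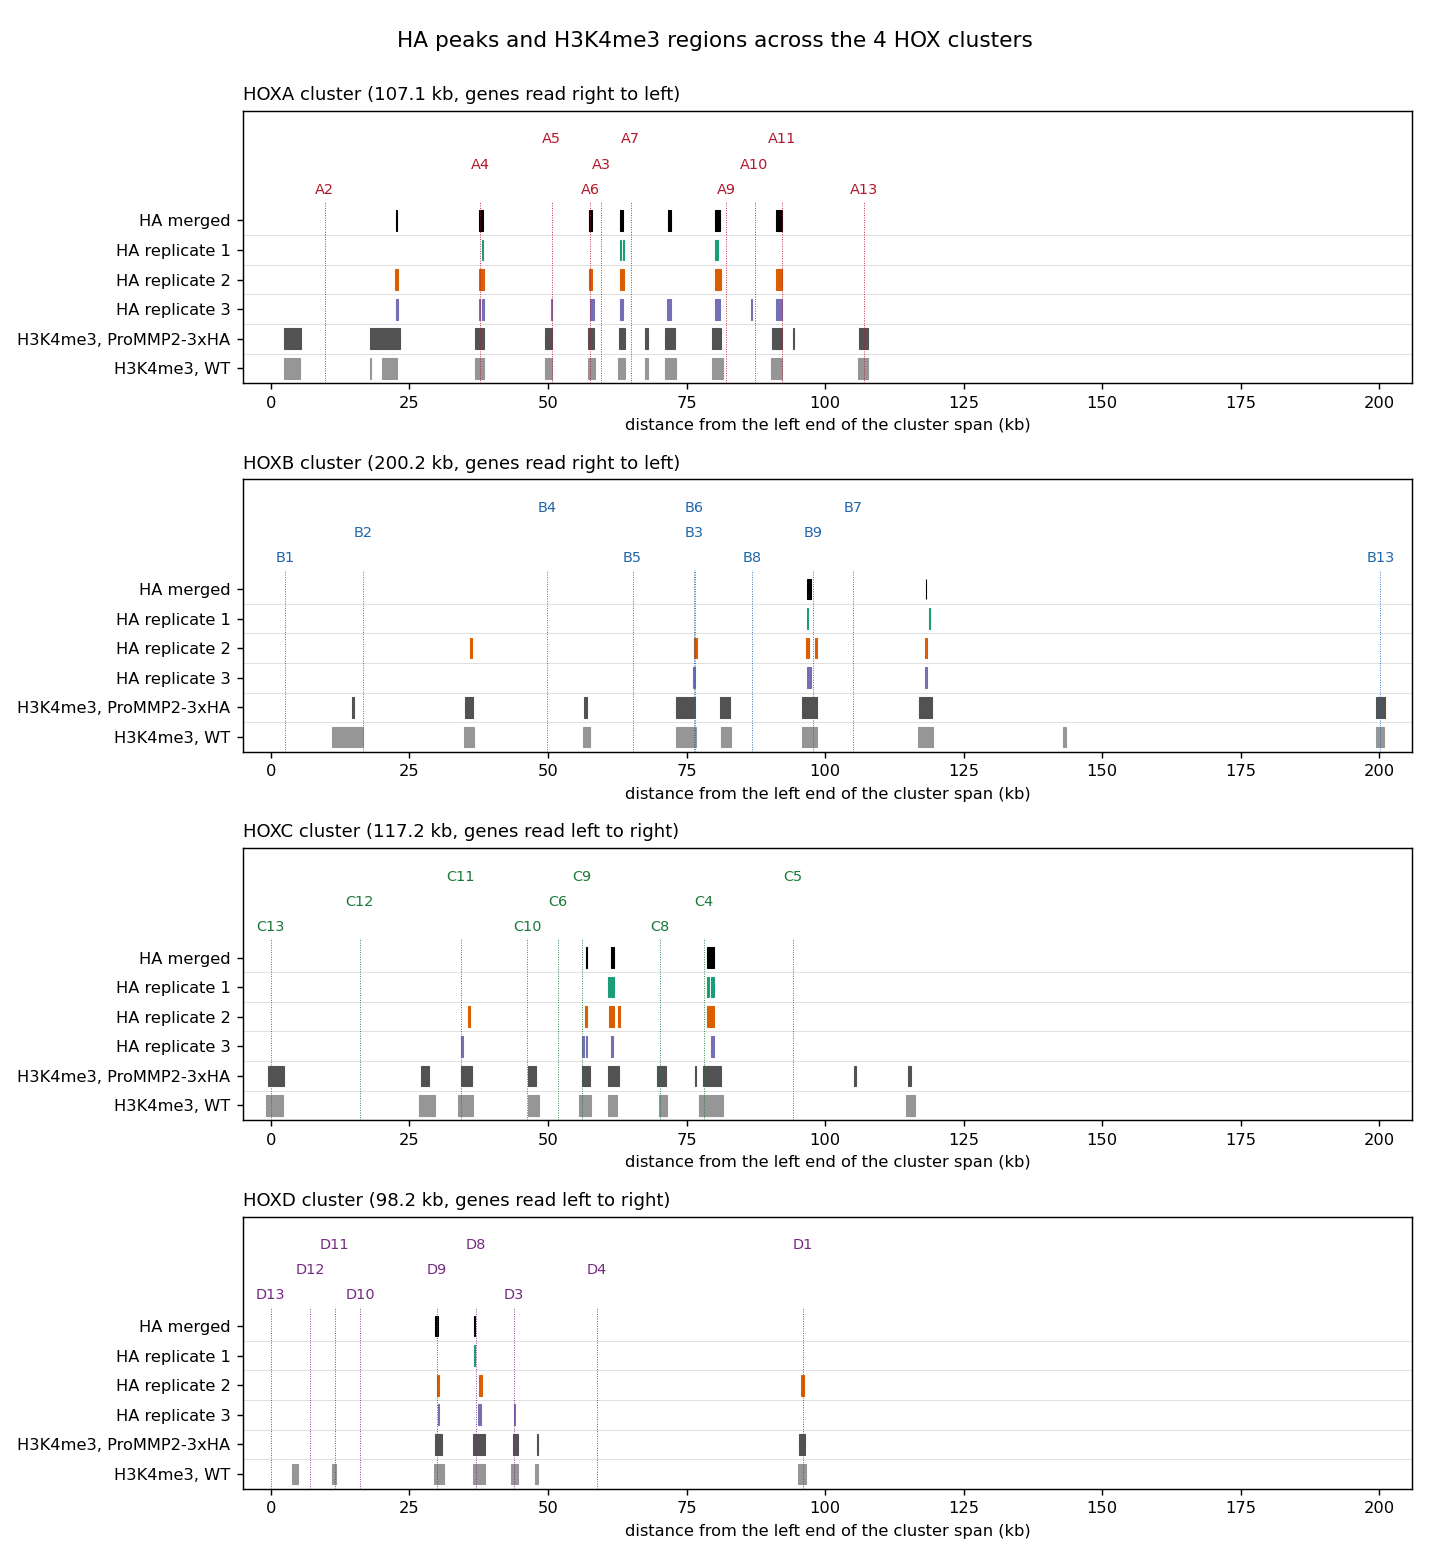
Positions of HA peaks (merged list and replicates 1, 2 and 3) and of H3K4me3 regions of both lines along each cluster, in kb from the left end of the span, with dotted lines at the 5′ ends of 38 annotated HOX genes. The 7 merged HA peaks of HOXA contrast with 2, 3 and 2 in HOXB, HOXC and HOXD, and all 14 lie on H3K4me3 regions of both lines.

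HA peaks in the clusters were mostly lower than the median peak of the same replicate in replicates 1 and 2, and nearer to an even split in replicate 3. Replicate 1 had 11 HA peaks in the clusters with a median of 3.95 fold, against 4.88 over all its peaks, and 10 of the 11 were below that median. Replicate 2 had 19 with a median of 4.95 against 5.29, and 17 were below. Replicate 3 had 21 with a median of 4.15 against 4.62, and 12 were below. The ratio of the medians was 0.81, 0.937 and 0.899, below 1 in each replicate. The recovered number of fragments at the HOX summits had a median of 48 (33 to 58), 39 (23 to 67) and 38.5 (28 to 65) in replicates 1, 2 and 3, over the 11 of 11, 19 of 19 and 18 of 21 summits where it could be recovered. Of the 14 merged peaks, 6 overlapped a peak of every replicate (42.9%), 6 of 2 replicates and 2 of 1 replicate, against a background of 52.3% of all merged peaks found in every replicate. Their median width was 595 bp, against 423 bp over all merged peaks.

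Of the 51 replicate peaks in the clusters, 16 did not overlap a merged peak, and 7 of these lay within 4032 bp of one, the smallest gap of the merged list. A neighbouring site this close to a merged peak had no counterpart of its own in that list.

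**Figure D3:**
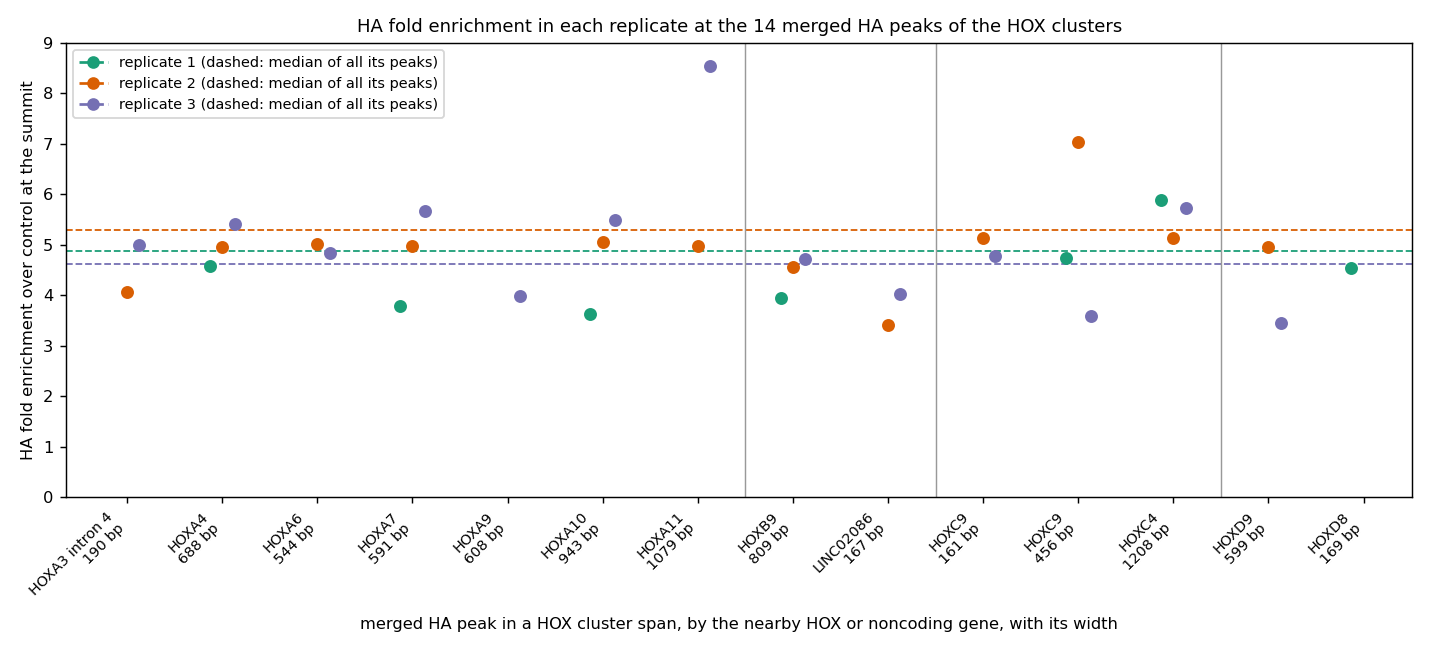
HA fold enrichment over control (linear axis) in replicates 1, 2 and 3 at the 14 merged HA peaks of the HOX clusters, in order along each cluster and named by a nearby gene, with dashed lines at the median of all peaks of each replicate. The values run from 3.41 to 8.54, with the highest at HOXA11 in replicate 3, and a missing point means that the replicate had no peak there.

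The side of the canonical TSS on which HOX summits lay varied between replicates. Within 1 kb of a canonical HOX TSS, 3 of 6 summits of replicate 1 (50%), 7 of 11 of replicate 2 (63.6%) and 12 of 13 of replicate 3 (92.3%) were downstream. Over all HA peaks with a summit within 1 kb of a canonical protein coding TSS, this share was 60.8%, 61.3% and 63.8%, so HOX summits were below it in replicate 1, close to it in replicate 2 and above it in replicate 3. The median distance of the HOX summits to the TSS on either side was 293, 483 and 359 bp. These shares rest on few summits and were not tested.

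HOXB, HOXC and HOXD were compared with HOXA by the percent of the span, from the first to the last base of the cluster's HOX genes, that HA peaks covered. The spans were chr7:27132612-27239710 for HOXA (107099 bp), chr17:46605888-46806112 for HOXB (200225 bp), chr12:54332615-54449814 for HOXC (117200 bp) and chr2:176957449-177055635 for HOXD (98187 bp). HOXA was covered to 0.985%, 4.62% and 5.12% in replicates 1, 2 and 3. HOXB was covered to 0.197%, 0.921% and 0.694%. HOXC was covered to 1.33%, 2.60% and 1.40%, and HOXD to 0.163%, 1.44% and 1.06%. HOXA was above HOXB and HOXD in every replicate, and above HOXC in replicates 2 and 3 but not in replicate 1.

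The difference of HOXA from HOXB was 2.97 ± 1.92 percentage points (SD, n = 3, higher in 3 of 3 replicates, p = 0.25 by the exact two-sided permutation of signs, 0.375 after Benjamini-Hochberg adjustment over the 3 comparisons). The difference from HOXD was 2.69 ± 1.68 points (n = 3, higher in 3 of 3, exact permutation p = 0.25, adjusted 0.375). The difference from HOXC was 1.80 ± 2.04 points (n = 3, higher in 2 of 3, exact permutation p = 0.5, adjusted 0.5). With 3 replicates the smallest p possible is 0.25, so none of these differences could pass a threshold of 0.05, and the difference from HOXC was smaller than its spread between replicates. The HOXB span includes a long stretch without HOX genes before HOXB13, and without it the difference of HOXA from HOXB was 2.65 points. The HOXA cluster is one of the example loci that the study displays, so its place above the other clusters is not an independent observation.

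HOXA also had the most H3K4me3 by share of the span, but in the WT cells its lead over HOXC was small (18.2% against 18.0%). Without the HOXA3 intron region, HOXA had 14.5% in the ProMMP2-3xHA cells and 15.5% in the WT cells, the latter below HOXC. H3K4me3 regions of the ProMMP2-3xHA cells covered 19.6% of HOXA, 6.7% of HOXB, 14.2% of HOXC and 5.43% of HOXD. Relative to the H3K4me3 bases of the same cells, merged HA peaks covered 22.1% in HOXA, 7.28% in HOXB, 10.9% in HOXC and 14.4% in HOXD, against 17.3% over the genome. In replicate 1 these shares were 5.03%, 2.95%, 9.34% and 3.00%, with 7.89% over the genome. In replicate 2 they were 23.6%, 11%, 16.8% and 26.5%, with 18.9% over the genome. In replicate 3 they were 25.1%, 10.4%, 9.80% and 19.5%, with 13.8% over the genome. Once scaled to H3K4me3, the order of HOXA and HOXD differed between replicates 2 and 3, HOXC was the highest cluster in replicate 1, and HOXB stayed below the genome in every replicate.

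Counted by region, 14 of 36 H3K4me3 regions in the clusters of ProMMP2-3xHA cells overlapped a merged HA peak (38.9%), against a background of 31.8% of all such regions. Wider regions overlap HA more often, and among regions of at least 1000 bp the share was 14 of 26 in the clusters (53.8%) against a background of 56.0%. By cluster, this was 7 of 10 in HOXA, 2 of 6 in HOXB, 3 of 8 in HOXC and 2 of 2 in HOXD. The H3K4me3 regions of the clusters that carried HA had a median width of 1902 bp and those without it 1298 bp. HOX H3K4me3 regions thus carried HA about as often as other regions of their width.

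H3K4me3 was then compared between the lines, with 1 library each and therefore without a test or a replicate check. It covered 19.6% of HOXA in the ProMMP2-3xHA cells and 18.2% in the WT cells, a difference of 1.44 percentage points. In HOXB the coverage was 6.7% and 10.4%, in HOXC 14.2% and 18.0%, and in HOXD 5.43% and 8.95%. HOXA was the only cluster of the 4 with more covered bases in the ProMMP2-3xHA list, and this rested on the HOXA3 intron region alone. Without that region in either line, the coverage of HOXA was 14.5% in the ProMMP2-3xHA cells and 15.5% in the WT cells, so the direction turned (15479 and 16607 bp, a ratio of 0.932). The ratio of covered bases, ProMMP2-3xHA over WT, was 1.08 in HOXA, 0.644 in HOXB, 0.789 in HOXC and 0.606 in HOXD. It was 0.804 over the 4 clusters together and 0.753 over the genome, so HOXB and HOXD lay below the ratio of the whole lists and HOXA and HOXC above it. The depth of these libraries is unknown, and its part in these differences was not tested.

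Individual regions account for much of these differences. The WT region that ended at the HOXB2 TSS spanned 5634 bp, and in the ProMMP2-3xHA list a region of 355 bp was all that overlapped it, near the 5′ end of HOXB-AS1. In HOXD, WT regions of 1076 and 569 bp among the posterior genes had no counterpart in the ProMMP2-3xHA list, and the second gave HOXD11 its H3K4me3. Neither HOXB2 nor HOXD11 had an HA peak in any replicate. At the HOXC4 peak the region spanned 3291 bp in the ProMMP2-3xHA cells and 4308 bp in the WT cells. Some shared regions were wider in the ProMMP2-3xHA than in the WT cells. They lay at HOXC13 (3042 and 2895 bp), HOXC8 (1548 and 1433 bp), HOXB13 (1495 and 1482 bp), and the canonical TSSs of HOXC9 (1919 and 1727 bp) and HOXB7 (1850 and 1698 bp). In HOXA, apart from the HOXA3 intron region, 10 of the 10 regions shared by the lines were narrower in the ProMMP2-3xHA cells. Over the whole lists, the median width was 895 bp in the ProMMP2-3xHA cells and 1482 bp in the WT cells. Among them, the widths in the ProMMP2-3xHA and WT cells were 1613 and 1695 bp at HOXA4, 1116 and 1356 bp at HOXA6, 1743 and 2121 bp at the canonical HOXA10 TSS, and 1910 and 2029 bp at HOXA11.

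**Figure D4:**
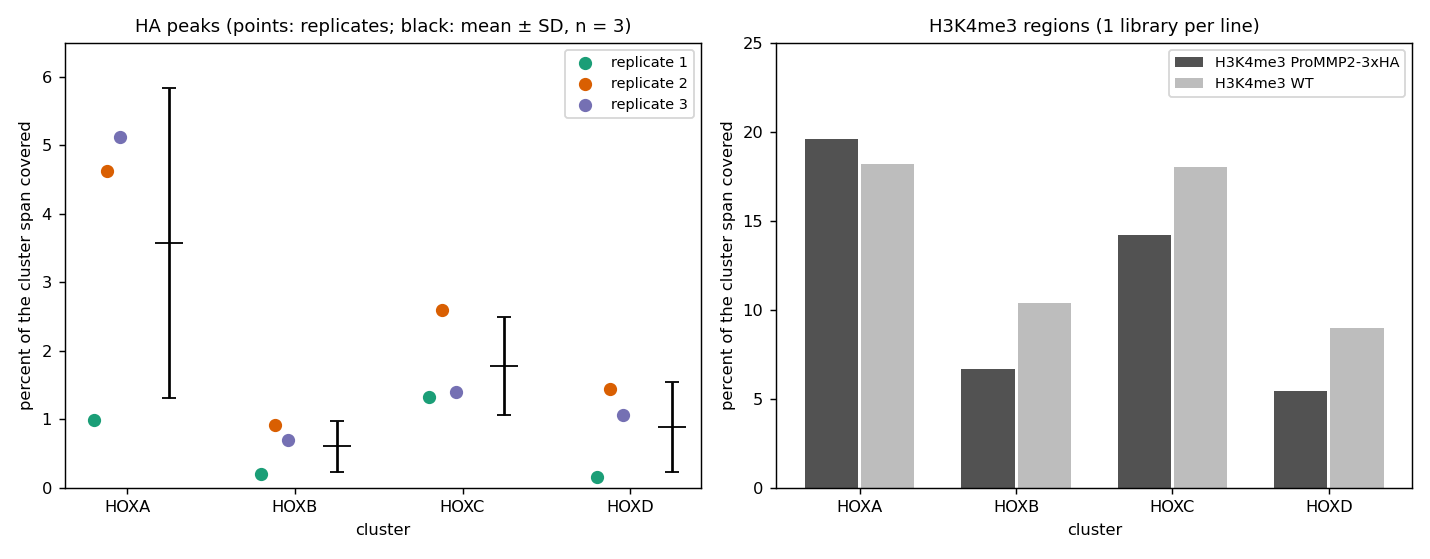
Percent of each cluster span covered by HA peaks in replicates 1, 2 and 3 (left, points, with mean ± SD in black, n = 3) and by H3K4me3 regions of the ProMMP2-3xHA and WT cells (right, bars, 1 library each). HOXA has the highest HA mean, 3.57 ± 2.26%, with replicate 1 far below the other replicates, and is the cluster where H3K4me3 covers more in the ProMMP2-3xHA cells than in WT, a direction that turns without the HOXA3 intron region.

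The clusters also hold 28 lncRNA genes and 7 miRNA genes by their 5′ ends. A merged HA peak lay within 1 kb of the 5′ end of 7 lncRNA genes (25%), against a background of 10.6% of all lncRNA genes, but 5 of these 7 shared the peak with a HOX TSS described above. They were HOXA-AS3, HOXA11-AS, HOXC-AS1, HOXC-AS2 and an unnamed gene next to HOXC4, beside the pair LINC02086 and LINC03057 described above. H3K4me3 lay at 16 of the 28 in the ProMMP2-3xHA cells (background 21.0% of all lncRNA genes) and at 17 in the WT cells (background 23.2%). HOTTIP, the lncRNA gene at the posterior end of HOXA that is known to act on neighbouring HOXA genes, had H3K4me3 in both lines and no HA peak in any list. HAGLR shared the peak of HOXD1 at 4.17 fold in replicate 2, and HOXD-AS2 that of HOXD3 at 3.78 fold in replicate 3. The 7 miRNA genes, among them MIR196A1, MIR196A2, MIR196B and MIR10B, had neither HA nor H3K4me3 within 1 kb of their 5′ ends.

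Genes that act with or on HOX genes were counted in the same way, against the same background of 28.2% of TSSs with a merged HA peak. Of 9 TALE homeodomain cofactors, which bind DNA together with HOX proteins, 2 had a merged HA peak, PKNOX1 with 7.80 and 5.67 fold in replicates 2 and 3 and MEIS1 with 5.14 fold in replicate 3 only. Of 9 Trithorax group genes, 5 had one, among them ASH2L with 7.81, 9.85 and 8.89 fold and DPY30 with 7.17, 10.6 and 11.1 fold, which encode subunits shared by the H3K4 methyltransferase complexes. These exceeded every HOX value of the same replicate. KMT2A, the classical activator of HOX genes, had H3K4me3 and no HA peak.

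Of 18 Polycomb group genes, 8 had a merged HA peak, with 4.91, 5.96 and 4.77 fold at RING1, a ubiquitin ligase of histone H2A, and 4.18, 6.04 and 4.14 fold at RBBP4, a histone-binding subunit of the H3K27 methyltransferase complex. EZH1, a catalytic subunit of that complex, had 4.04, 4.73 and 5.67 fold, while EZH2, the alternative catalytic subunit, and the core subunits SUZ12 and EED had no HA peak in any list. EED, unlike EZH2 and SUZ12, also had no H3K4me3 in either line at its annotated 5′ end, and canonical TSSs were not counted for these genes. Of 6 genes for the boundary factor CTCF and cohesin, 4 had one, with 6.21, 5.29 and 7.05 fold at CTCF. Of 6 retinoic acid receptor genes, which convey the signal that opens HOX clusters in the embryo, only RXRB had one, with 6.93, 9.06 and 9.27 fold. Of 9 homeobox genes that flank the clusters or belong to the related ParaHox group, only GSX2 had one, with 4.57, 6.39 and 4.38 fold, in the absence of an H3K4me3 region at its TSS in either line. H3K4me3 of the ProMMP2-3xHA cells lay at 44 of these 57 genes (background 57.0% of all protein coding TSSs) and a merged HA peak at 21. Among all protein coding TSSs with H3K4me3 of these cells, 48.8% had a merged HA peak, and the lists were not tested against either share. H3K4me3 lay at 2 of the 9 flanking and ParaHox genes and at all 9 Trithorax group genes.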

How the data were processed

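U2OS nChIP-Seq libraries were sequenced and processed by the study. The authors trimmed reads with Trim Galore 0.6.0, aligned them as pairs to hg19 with Bowtie2 2.3.5.1, filtered them on mapping quality with SAMtools 1.9, removed duplicates with Picard and called peaks with MACS2 3.0.0a6 at a q-value of 0.05. The HA replicate lists are narrow calls against a control, which the methods give as an input or a control immunoprecipitation. From the methods and the peak names, it was taken to be the HA immunoprecipitation that the study ran in the WT cells. In each line the authors deposited an interval, a score, the fold enrichment as a linear ratio, the −log10 p-value, the −log10 q-value and a summit. The merged HA list and both H3K4me3 lists are intervals alone, in which the authors joined narrow and broad calls, so neighbouring calls can be 1 region.

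A peak listed with several summits was used once, at its summit of highest fold enrichment. Genes came from GENCODE version 44 on GRCh37, and no deposited interval ran past the end of any of the 24 chromosomes compared. Overlaps needed 1 base. The ratio of HA to control depth, recovered from the fold enrichment and the p-value, was 3.57, 2.81 and 3.00 in replicates 1, 2 and 3, and fragments were read where they came out whole within 0.02 (96.5%, 99.3% and 99% of 1500 sampled summits per replicate). These depths cover counting error only. The scripts (Python 3.11.15, numpy 2.4.6, scipy 1.17.1) were tested on simulated data.

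Coverage of a cluster span was compared between clusters by the exact permutation of signs over the 3 replicates. Counts of members stand beside the same count over all genes, without a test. All 39 members were counted, those with an HA peak were given with their fold enrichment, and sequence was printed for up to 6 peaks, those in every replicate first. The values of 1 member and the sequence of 1 peak are not reported here. The members, lists and tests were chosen with earlier results of these data known. Alternatives changed the TSS window, the TSS definition, the q-value, the region width, the span limits, the measure and the replicates.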

Additional observations from a re-analysis of the deposited data

How the results depend on the processing

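Of 63 alternatives over 15 results, 55 left the value within the limits set for it, 7 moved it and 1 reversed a direction. That one was the H3K4me3 coverage of HOXA in the ProMMP2-3xHA cells minus that in the WT cells, 1.44 points, which was -1.05 points without the HOXA3 intron region. The number of HOX TSSs with a merged HA peak, 8 in the main count, was 3 when the TSS had to lie inside the peak and also 3 with merged peaks found in every replicate. The mean number over replicates, 9.67, was 2 with the TSS inside the peak and 5 with a q-value of at most 0.001. The other moved values were the merged peaks per cluster when a peak in every replicate was required, 3 in HOXA, 1 in HOXB and 0 in HOXD. Leaving out each replicate in turn gave means of 8 to 12.5 HOX TSSs, and differences of HOXA of 2.24 to 4.06 points from HOXB, 0.836 to 2.87 from HOXC and 2.00 to 3.62 from HOXD. Counted as HA peaks per 100 kb, HOXA was above HOXC in all 3 replicates (mean difference 2.24 peaks, exact permutation p = 0.25). The canonical TSS, the HOXB span without HOXB13 and HOXA without the HOXA3 intron region were alternatives added after the data were seen. The lists hold only regions past the callers' threshold, so a gene without a peak may carry HA below it. The comparison of clusters was made within each HA replicate. Between the groups of antibody and cell line, no paired analysis was possible because only HA in the ProMMP2-3xHA cells had more than 1 replicate.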
